A study of Mus musculus with 12 samples.

Results

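The genes described here are 9 genes of neuron migration and the microtubule skeleton, out of 55335 genes listed in the files. They were taken by gene symbol: Dcx, Dclk1, Dclk2, Pafah1b1, Tubb3, Tubb2b, Tuba1a, Map2 and Mapt, each matching 1 row. They were measured in nuclei of mouse forebrain taken at postnatal day 1, by single-nucleus RNA sequencing of 12 libraries, each from 1 animal. The wild-type (WT) group had 8 libraries (5 male and 3 female), and the heterozygous (Het) group had 4 (3 male and 1 female). All carry the strain label MYT1L S710fsX, a frameshift allele of the neuronal transcription factor gene Myt1l, of which Het animals have 1 copy and WT animals none. The litter of each animal is not given in the labels.

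Newborn excitatory neurons of the cortex migrate along radial glia, and the nucleus is drawn forward on microtubules by the motor dynein. Doublecortin and its relatives bind and stiffen microtubules in the leading process, LIS1 (the product of Pafah1b1) regulates dynein, alpha- and beta-tubulins are the building blocks of the microtubule, and MAP2 and tau (the product of Mapt) bind microtubules in dendrites and axons. Altered copies of several of these genes cause human malformations of cortical layering such as lissencephaly, and doublecortin and beta-III tubulin (the product of Tubb3) are in wide use as stains for young neurons.

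Tubb2b and Tuba1a have near-identical copies in the genome, which bears on how their reads can be counted. Coding sequences of Tubb2b and its neighbour Tubb2a differed at 47 of 1335 bases, with a longest identical run of 551 bases. Those of Tuba1a and Tuba1b differed at 23 of 1353 bases, with a longest identical run of 281. The last 75 coding bases of Tubb2b and Tubb2a before the stop codon, in the last exon of each gene, are printed because they hold bases by which a read from that end could be told apart, with those that differ between the genes in capitals (GENCODE M21 transcripts on GRCm38, minus strand for both).
Tubb2b, chr13:34127474-34127548: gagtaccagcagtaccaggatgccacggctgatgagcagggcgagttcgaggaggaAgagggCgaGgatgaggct
Tubb2a, chr13:34074471-34074545: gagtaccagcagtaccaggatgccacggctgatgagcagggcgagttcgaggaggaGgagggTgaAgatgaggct
The pair differed at 3 of these 75 bases. Over whole transcripts, 72.9% of the 50-base words of Tuba1a and 36.9% of those of Tubb2b also occurred in transcripts of other genes, chiefly Tuba1c for the former and Tubb2a for the latter. The same share was 0.95% for Pafah1b1, which has processed pseudogenes, 0.18% for Dcx and 0 for Dclk1, Dclk2, Tubb3, Map2 and Mapt.

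After the quality filter 98076 of 126684 barcodes were kept, 57032 from WT and 41044 from Het libraries, and no barcode was shared between libraries. Kept nuclei held between 10396670 and 25598340 unique molecular identifiers (UMIs) per library. Levels are given as CPM, the UMIs of a gene per 1000000 UMIs of a set of nuclei in a library. Myt1l was measured at 1461 to 1948 CPM in excitatory nuclei of WT libraries and at 1953 to 2055 in those labelled Het. Since a frameshift transcript can still be counted, and the Het libraries had the higher values, this level does not check the genotype, and directions between WT and Het rest on the labels. The dorsal forebrain gene Emx1 was at 3.53 to 9.22 CPM in all kept nuclei, and the midbrain and hindbrain genes En1, En2, Hoxa3 and Hoxb3 did not pass 0.609 in any library. WT female 3, the library with the fewest kept nuclei (4634), stood apart for the tubulins in excitatory nuclei, and comparisons of tubulins between WT and Het are given with and without it.

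Nuclei were assigned to classes by marker genes, none of which is among the 9 genes, so the rule for the classes did not use the values compared. In all 39999 nuclei (40.8%) fell into a class, and 7624 (7.77%) with markers of several lineages were left out. The class of immature excitatory neurons (ExN) had 3026 nuclei, upper-layer ExN 7403, deep-layer ExN 8855, L6b/subplate ExN 233 and Eomes-positive progenitors 242. The inhibitory neuron (InhN) classes were immature (357 nuclei), from the medial and caudal ganglionic eminences (MGE, 2394, and CGE, 1323), and striatal with D1 (1774) or D2 (369) dopamine receptor markers. Immature classes were shallower, with a median of 1618 UMIs per nucleus in immature ExN and 1185 in immature InhN, against 2596 in upper-layer, 3113 in deep-layer and 2461 in MGE nuclei. Class levels are given as mean ± SD over libraries with at least 10 nuclei of the class.

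In all excitatory-lineage nuclei (34806), Map2 and Dclk1 gave the most UMIs of the 9 genes. Map2 was at 1392 ± 42.4 CPM (SD, n = 12), the doublecortin-like kinase gene Dclk1 at 1203 ± 28.5 and Mapt at 514 ± 47.5. Dcx, which encodes doublecortin and lies on chromosome X, was at 381 ± 54.4. Tuba1a was at 285 ± 106, Dclk2 at 260 ± 13.0, Pafah1b1 at 196 ± 12.4, Tubb2b at 186 ± 69.4 and Tubb3 at 105 ± 31.3 CPM. Intronic reads count in nuclei, and the genes range from 3.72 kb (Tubb2b) to 297 kb (Dclk1) in genomic span, so the order changed with length. Per kilobase of exon, the levels of Tuba1a (158 CPM per kb) and Map2 (84.6) came first, followed by Tubb2b (81.1), Dclk1 (78.6), Mapt (68.2), Tubb3 (56.3), Dcx (30.2), Dclk2 (24.6) and Pafah1b1 (20.4). Per kilobase of genomic span, the 3 short tubulin genes came first, with Tuba1a at 73.8, Tubb2b at 50.0 and Tubb3 at 9.92 CPM per kb, and the others lay between 1.93 and 5.21. UMIs were added to transcripts at reverse transcription, so counts need not scale with exon or genomic length. Neither order is therefore a corrected order of expression.

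The tubulins varied more between libraries than the other genes. In excitatory nuclei the coefficient of variation over the 12 libraries was 37.3% for Tubb2b, 37.1% for Tuba1a and 29.8% for Tubb3, against 14.3% for Dcx, 9.25% for Mapt and 2.37% to 6.33% for Dclk1, Map2, Dclk2 and Pafah1b1. WT female 3 had 580 CPM of Tuba1a, 383 of Tubb2b and 195 of Tubb3, and the next WT library, WT female 1, had 286, 198 and 126. Without WT female 3 the coefficients were 20.4% for Tuba1a, 19.6% for Tubb2b and 14.5% for Tubb3, with Dcx at 11.8%, so that Tubb3 lay little above Dcx. The levels of Tubb2b and Tuba1a moved together over libraries (Pearson r = 0.99, permutation p = 1e-05, the smallest that 100000 permutations can give, adjusted p = 0.00011 over the 22 relations computed; Spearman rho = 0.96, permutation p = 3e-05), also without the libraries farthest from the median, WT female 2 and WT female 3 (r = 0.94). Tubb3 followed Tuba1a less tightly (r = 0.94, permutation p = 0.00068, adjusted p = 0.003; rho = 0.90, permutation p = 0.00024), and r was 0.61 without the same libraries.

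The share of mitochondrial UMIs in the same excitatory nuclei, a sign of RNA from outside the nucleus, went with the level of some of the genes. It ran from 0.0831% in WT female 2 to 0.240% in WT female 3, with Het libraries at 0.0924% to 0.226% (exact permutation p = 0.473 between WT and Het). Tuba1a rose with it (r = 0.80, permutation p = 1e-05, adjusted p = 0.00011; rho = 0.84, permutation p = 0.00092), with r = 0.84 without the libraries farthest from the median, WT female 3 and Het male 2, and r = 0.87 in WT libraries alone. So did Tubb2b (r = 0.76, permutation p = 0.00014, adjusted p = 0.001; rho = 0.87, permutation p = 0.00052; r = 0.74 without those libraries) and Dcx (r = 0.86, permutation p = 0.00034, adjusted p = 0.0019; rho = 0.78, permutation p = 0.0036; r = 0.81 without them). For Tubb3, r was 0.61 (permutation p = 0.018, adjusted p = 0.066; rho = 0.69, permutation p = 0.017) and 0.30 without those libraries, so that relation rests on them. The other 5 genes gave r between -0.17 (Dclk2) and 0.53 (Map2), with permutation p of 0.072 or more. For Map2 r was 0.65 without WT female 3 and Het male 2, and a relation can be missed with 12 libraries. Ribosomal protein mRNAs, at 0.0518% to 0.0691% of UMIs, gave an adjusted permutation p of 0.18 or more for Pearson's r of each of the 9 genes. For Spearman's rho the smallest was that of Tubb3 (rho = 0.61, permutation p = 0.041, adjusted p = 0.11). The part of RNA from outside the nucleus in these levels was not tested.

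**Figure D1:**
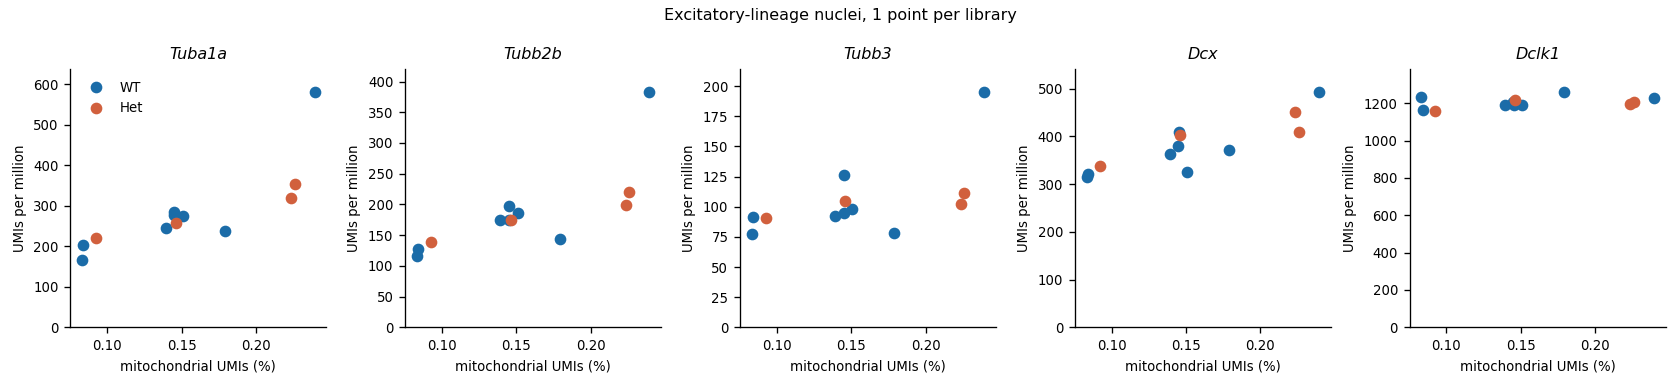
CPM of the genes named on the panels in excitatory nuclei (y axis) against the share of mitochondrial UMIs in the same nuclei in percent (x axis), 1 point per library (WT blue, Het orange). Tuba1a climbs with the mitochondrial share from WT female 2 (0.0831%) to WT female 3 (0.240%), which stands above all other libraries.

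None of the 9 genes was confined to neurons in these counts. How far RNA from other cells entered the counts of a nucleus was not tested, so they do not settle which classes express a gene. In microglia, which should lack neuronal transcripts, the level was 27.3% of the excitatory level for Dcx, 31.9% for Dclk1 and for Mapt, 35.3% for Map2, 44.9% for Tubb3, 51.7% for Tubb2b, 59.1% for Tuba1a and 68.8% for Dclk2. In endothelial nuclei Dcx was at 31.1% and Mapt at 28.7% of the excitatory level. Microglia had a median of 1090 UMIs per nucleus and excitatory nuclei 2434. The microglial UMIs of the 9 genes were few, from 22 (Tubb3) and 37 (Tubb2b) to 214 (Map2) over all libraries. Tubb3 ran from 0 to 140 CPM (Het male 3) between libraries there. On these counts the 3 tubulins had a smaller contrast between neurons and microglia than Dcx, Map2 and Mapt. Pafah1b1, which every cell uses, was higher in endothelial nuclei (432 ± 161 CPM) and microglia (297 ± 101) than in excitatory nuclei (196 ± 12.4). Dclk2 was also high in cycling nuclei (638 ± 92.7) and astroglia (513 ± 55.9), and Dclk1 in astroglia (1118 ± 118). Map2 was not particular to neurons either. It lay between 1323 (WT male 4) and 2040 CPM (WT female 3) in oligodendrocyte-lineage nuclei, against a mean of 1392 in excitatory nuclei. In cycling nuclei it lay between 980 (WT male 4) and 1556 CPM (WT male 1). The cycling class could hold nuclei with excitatory or inhibitory lineage markers, so it is not a class free of the neuronal lineages.

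**Figure D2:**
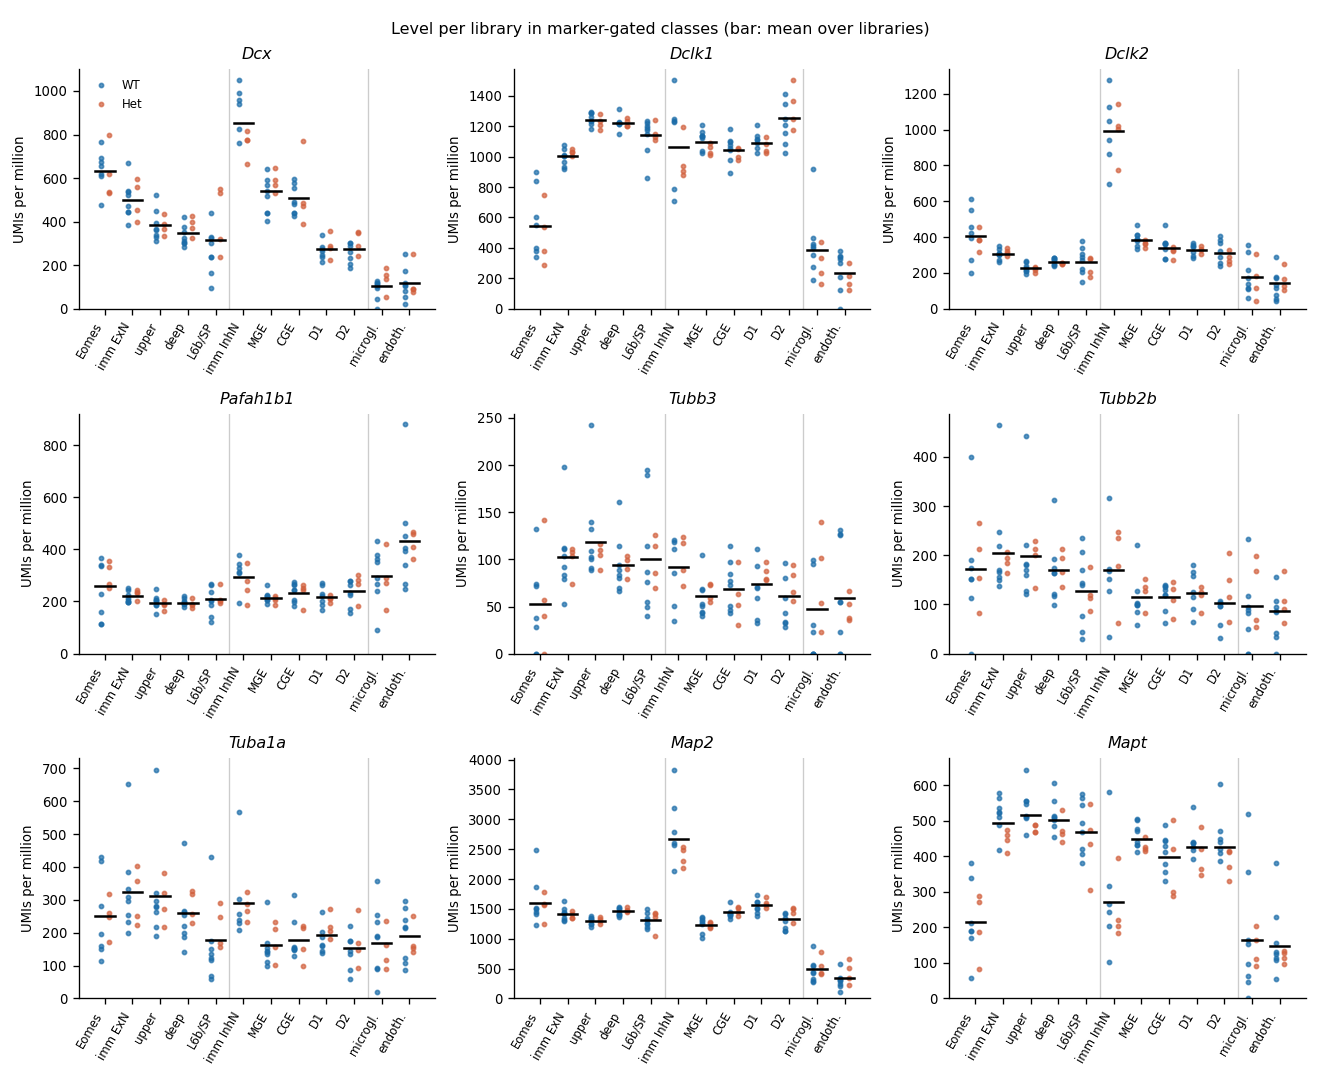
Level of each gene (y axis, CPM) in the excitatory classes, the inhibitory classes, microglia and endothelial nuclei (x axis), 1 point per library (WT blue, Het orange) and a bar at the mean over libraries. Dcx, Dclk2 and Map2 are highest in immature InhN (means of 855, 989 and 2665 CPM), and Mapt is lowest among the excitatory and inhibitory classes in Eomes-positive progenitors (215 CPM).

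By pattern over all 18 classes, the genes fell near different partners. Among 7610 other genes that reached 50 CPM in some class, the closest to Dcx was Rnf165 (Pearson r = 0.97 of log2 levels over the 18 classes), to Dclk1 Sun1 (0.84), to Dclk2 Astn1 (0.90), to Pafah1b1 the kinesin gene Kif5b (0.95), to Tubb3 Crmp1 (0.92), to Map2 Astn1 (0.97) and to Mapt the calcium channel gene Cacna1b (0.99). Tubb2b and Tuba1a were each other's closest gene (0.87). These coefficients describe classes that come from the same 12 libraries.

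Each mature class was then compared with the immature class of its lineage within the same libraries. The same immature class served all classes of a lineage, and its nuclei need not be precursors of each of them. Maturity and cell type therefore cannot be told apart in these differences. Dcx fell and Dclk1 rose from immature to layer-specific ExN. Dcx was at 383, 496 and 668 CPM (lowest, median and highest of 12 libraries) in immature ExN, at 312, 367 and 521 in upper-layer and at 285, 340 and 427 in deep-layer ExN. The level was lower in 12 of 12 libraries in both layer classes, although the ranges of the classes overlapped across libraries. The change was -0.26 ± 0.05 in upper-layer and -0.38 ± 0.05 in deep-layer ExN on the log2 scale (± SE, edgeR's quasi-likelihood test, adjusted p = 1.49e-05 and 2.58e-07).

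Dclk1, which carries doublecortin domains and a kinase domain, was at 921, 1007 and 1074 CPM in immature ExN, at 1176, 1233 and 1295 in upper-layer and at 1151, 1218 and 1312 in deep-layer ExN. No library of the immature class reached the lowest library of either layer class. The rise was 0.43 ± 0.04 and 0.42 ± 0.04 (edgeR adjusted p = 1.75e-10 and 5.40e-10), in 12 of 12 libraries each. The related kinase gene Dclk2 went the other way in upper-layer ExN, from 261, 309 and 348 CPM to 195, 225 and 264, a change of -0.32 ± 0.05 (edgeR adjusted p = 3.85e-06) in 12 of 12 libraries. In deep-layer ExN it was not called (-0.11 ± 0.05, edgeR adjusted p = 0.12).

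Among the tubulins, Tubb3 rose in upper-layer ExN, from 52.9, 104 and 198 CPM to 88.4, 107 and 243 (0.29 ± 0.08, edgeR adjusted p = 0.00404), though in 8 of 12 libraries and with overlapping ranges. It did not differ in deep-layer ExN by the test (0.01 ± 0.09). Tubb2b (0.07 ± 0.07 and -0.10 ± 0.07) and Tuba1a (0.06 ± 0.06 and -0.16 ± 0.07) were not called in upper-layer or deep-layer ExN. Pafah1b1 was not called in any of the 8 class comparisons, with values from -0.09 (Eomes-positive progenitors) to -0.02 (L6b/subplate ExN). Mapt passed the adjusted p in both layer classes but not the size of 0.2 (0.196 ± 0.045 in upper-layer and 0.165 ± 0.047 in deep-layer ExN), and Map2 likewise in deep-layer ExN (0.18 ± 0.04).

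Of the 9 genes, 2 were called higher and 2 lower in upper-layer ExN, where 18% of all 9364 genes tested were called higher and 16% lower. In deep-layer ExN, 1 was higher and 1 lower, against 20.4% and 17.5% of 10706 genes. The shares among the 9 genes are near these backgrounds. L6b/subplate ExN had 0 higher and 3 lower, against 20.2% and 18.9% of 4985 genes: Tuba1a (-0.82 ± 0.14), Tubb2b (-0.65 ± 0.17) and Dcx (-0.64 ± 0.14; edgeR adjusted p = 1.80e-05, 0.00291 and 0.000464). Tuba1a and Dcx were lower in 12 of 12 libraries and Tubb2b in 10 of 12. Over 18 alternatives, 2 to 5 of the 9 genes were called in L6b/subplate ExN, so these calls depend in part on the setting.

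Eomes-positive progenitors, which come before the immature ExN, had less Mapt, Dclk1, Tuba1a and Tubb3 under TMM. Mapt was at 57.7, 190 and 381 CPM over 11 libraries, all below the lowest immature ExN library (409), and Dclk1 was at 289, 540 and 902 CPM, below the lowest (921). The differences from immature ExN were -1.55 ± 0.19 and -1.27 ± 0.16 (edgeR adjusted p = 5.55e-11 and 1.11e-10), in 11 of 11 libraries. Tuba1a (-0.77 ± 0.19) and Tubb3 (-1.01 ± 0.33, edgeR adjusted p = 0.0181) were also called lower, the latter on 25 UMIs in the whole class, with libraries at 0. Tubb3 was not called without WT female 3 (-0.79), WT female 2 (-0.87) or Het male 2 (-0.86; edgeR adjusted p = 0.0782, 0.0585 and 0.0585). Thus 0 of the 9 genes were higher and 4 lower, where 6.38% and 13.8% of 5723 genes were. DESeq2 called 3 of the 9 in this comparison. Dcx, Dclk2, Map2, Pafah1b1 and Tubb2b were not called. Dcx was higher in CPM than in immature ExN in 11 of 11 libraries, and its fitted difference was -0.06 ± 0.15 with TMM and 0.34 ± 0.15 with total UMIs (edgeR adjusted p = 0.87 and 0.0868).

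In the inhibitory lineage, Dclk2, Dcx and Map2 were at their highest in the immature class and Mapt was higher in the mature classes. Dclk2 was at 695, 1012 and 1277 CPM in immature InhN (10 libraries) and no library passed 467 CPM in the MGE, CGE, D1 or D2 classes. The changes were -0.94 ± 0.13 (MGE), -1.28 ± 0.14 (CGE), -1.17 ± 0.13 (D1) and -1.46 ± 0.14 (D2), in 10 of 10 libraries each. Map2 likewise fell from 2141, 2553 and 3835 CPM to a highest library of 1370 in MGE and 1736 in D1 (-0.63 ± 0.13 and -0.37 ± 0.13), and by 0.59 and 0.74 on the log2 scale in CGE and D2. The fall of Map2 in D1 was not called without WT male 3 (-0.30, edgeR adjusted p = 0.0675). Dcx fell in the CGE (-0.49 ± 0.13), D1 (-1.27 ± 0.13) and D2 (-1.33 ± 0.14) classes and was not called in MGE (-0.17 ± 0.13, edgeR adjusted p = 0.38), although its CPM was lower there in 10 of 10 libraries.

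Mapt rose by 1.16 ± 0.16 in MGE, 0.90 ± 0.18 in CGE, 1.09 ± 0.17 in D1 and 0.92 ± 0.20 in D2 (edgeR adjusted p = 1.81e-09, 0.000204, 7.50e-07 and 0.000455), in 8 or 9 of 10 libraries. Its level was 103, 232 and 580 CPM in immature InhN and 412, 436 and 504 in MGE. Dclk1 was called higher in MGE (0.52 ± 0.14), D1 (0.47 ± 0.14) and D2 (0.47 ± 0.15). Its CPM was higher in 5 of 10 libraries in MGE and in D1, and the D2 call was lost without WT male 5 (0.36), WT female 3 (0.28), Het male 3 (0.37) or Het female 1 (0.34). Among the tubulins, Tuba1a in D2 was called with TMM (-0.66 ± 0.20, edgeR adjusted p = 0.00733), and scaling by total UMIs called more of them. The counts were 2 higher and 2 lower of 9 in MGE (20.2% and 9.64% of 6590 genes), 1 and 3 of 9 in CGE (20.2% and 12.5% of 3539), 2 and 3 of 9 in D1 (24.5% and 16.8% of 4483) and 2 and 4 of 8 in D2 (30.5% and 23.5% of 1758).

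**Figure D3:**
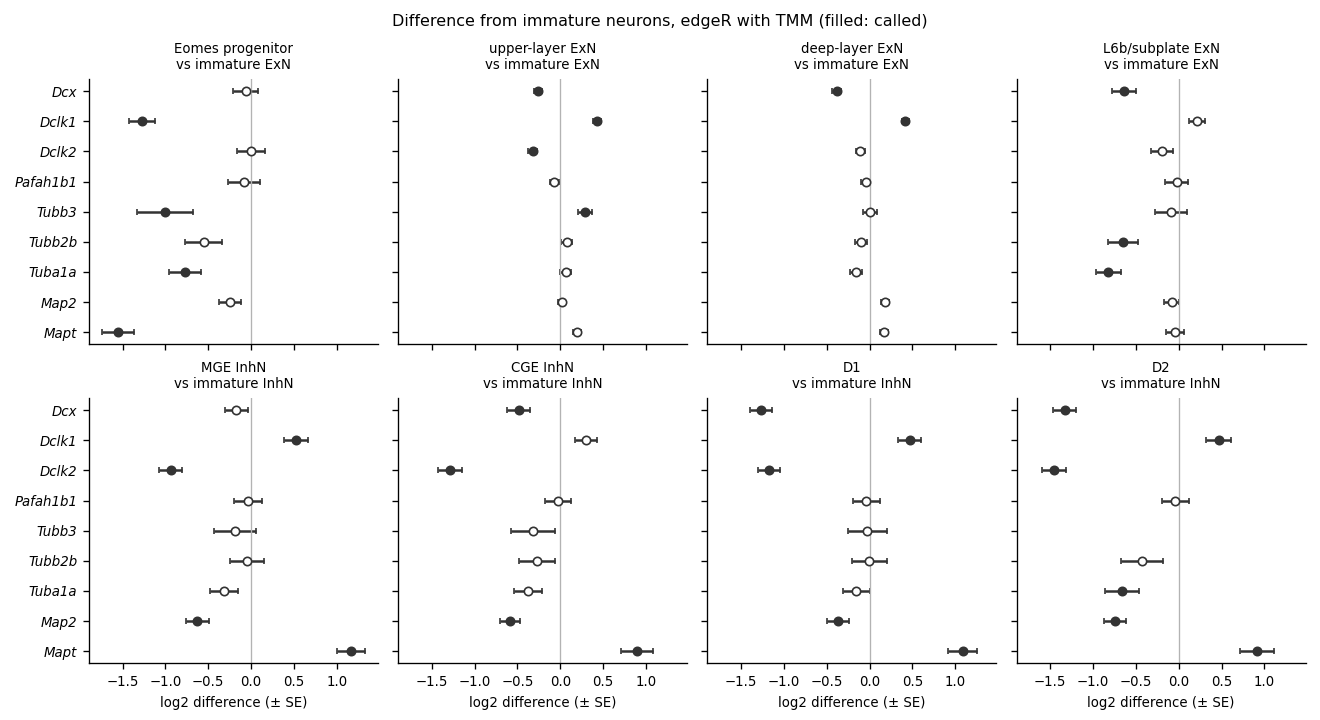
Log2 difference of each gene between a class and the immature class of its lineage (x axis, edgeR with TMM, bars ± SE), filled where called. Dclk1 lies right of 0 and Dcx left of 0 in both layer classes, and Mapt lies near 1 in the 4 inhibitory classes.

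The scaling decided part of these calls. TMM, used above, sets the bulk of genes near 0, and scaling by total UMIs moved the median of all genes to -0.16 in upper-layer and -0.17 in deep-layer ExN, to between -0.30 and -0.39 in the 4 inhibitory classes, and to 0.27 in Eomes-positive progenitors. The share of called genes that were higher then went from 53.0% to 31.9% in upper-layer ExN, from 53.8% to 35.5% in deep-layer ExN, from 31.6% to 64.7% in Eomes-positive progenitors, from 67.7% to 33.1% in MGE, from 61.7% to 33.8% in CGE, from 59.4% to 31.8% in D1 and from 56.4% to 37.3% in D2. Every fall of Dcx and Dclk2 called above and the rise of Mapt in the inhibitory classes were called under both scalings, as was the rise of Dclk1 in upper-layer (0.30 ± 0.04) and deep-layer ExN (0.28 ± 0.04). The rises of Tubb3 in upper-layer ExN (0.16 ± 0.08, edgeR adjusted p = 0.113) and of Dclk1 in MGE (0.07 ± 0.13), D1 (0.06 ± 0.13) and D2 (0.17 ± 0.15) were not called with total UMIs. No called gene among the 9 changed sign. With total UMIs 13.7% of all genes tested were called higher and 29.1% lower in upper-layer ExN, 16.4% and 29.9% in deep-layer ExN, 12.8% and 7.01% in Eomes-positive progenitors, 12.2% and 24.7% in MGE, 14.9% and 29.2% in CGE, 16.6% and 35.6% in D1, and 23.9% and 40.3% in D2. Against these shares, further falls of the 9 genes were called with total UMIs: those of Dclk2 (-0.24), Tubb2b (-0.23) and Tuba1a (-0.29) in deep-layer ExN, of Dcx (-0.62 ± 0.14), Tubb3 (-0.62) and Pafah1b1 (-0.48) in MGE, of Pafah1b1 in D1 (-0.44), of Tuba1a in MGE (-0.76), CGE (-0.67) and D1 (-0.55), and of Tubb2b in MGE (-0.48), CGE (-0.57) and D2 (-0.72). In Eomes-positive progenitors the lower levels of Tuba1a (-0.38, edgeR adjusted p = 0.158) and Tubb3 (-0.62, edgeR adjusted p = 0.189) were no longer called. Without a filter on low counts the falls of Dcx in upper-layer ExN (-0.18) and CGE (-0.19), of Map2 in CGE (-0.29) and D1 (-0.03) and of Tuba1a in D2 (-0.61) were not called.

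Other genes of the pathway were taken from 9 lists. In upper-layer against immature ExN, 53 of them were tested, with 13 higher and 5 lower under TMM (18% and 16% of all genes were called) and 6 higher and 15 lower with total UMIs (13.7% and 29.1% of all genes). In deep-layer ExN 56 were tested, with 18 higher and 8 lower under TMM (20.4% and 17.5% of all genes) and 8 and 15 with total UMIs (16.4% and 29.9%). The counts with total UMIs are near those of all genes, and all genes turned in direction with the scaling as well. Other structural microtubule proteins had a median log2 difference of 0.25 in upper-layer and 0.31 in deep-layer ExN under TMM, against -0.03 and -0.04 over all genes, and of 0.12 and 0.17 with total UMIs, against -0.16 and -0.17. Of them, 3 of 7 and 5 of 8 tested genes rose and 0 fell under TMM, and 3 rose and 1 fell in each class with total UMIs. Of all genes, 18% and 20.4% rose in these classes under TMM and 13.7% and 16.4% with total UMIs. The counts are over only 7 and 8 genes, and whether the list differs from all genes was not tested. The 3 that rose in upper-layer ExN were, under TMM, Map6 (0.59 ± 0.08), which protects microtubules from cold, Map4 (0.38 ± 0.06) and Map1b (0.36 ± 0.05), and these were called with total UMIs too (0.46, 0.25 and 0.23).

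Dync1i1, an intermediate chain of the dynein that LIS1 regulates, rose in upper-layer ExN by 1.05 ± 0.07 (edgeR adjusted p = 3.47e-15) and by 0.92 ± 0.07 with total UMIs. Of the other tubulins, 4 of 11 were tested and Tubb2a rose under both scalings (0.40 ± 0.11 and 0.27 ± 0.11), as did the plus-end gene Mapre2 (0.49 ± 0.07 and 0.36 ± 0.07). Genes that fell there under both scalings included Cdk5r1, which encodes the activator p35 of the kinase CDK5 (-0.39 ± 0.08 and -0.52 ± 0.08), the tubulin acetyltransferase gene Atat1 (-0.30 ± 0.06 and -0.43 ± 0.06), the minus-end gene Camsap1 (-0.21 ± 0.07 and -0.34 ± 0.06) and Ywhae (-0.20 ± 0.08 and -0.33 ± 0.08).

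Rises called under TMM alone were those of 3 of the 4 stathmins, which bind free tubulin (Stmn2 0.32 ± 0.05, Stmn3 0.29 ± 0.09 and Stmn1 0.25 ± 0.06), of the dynein heavy chain gene Dync1h1 (0.25 ± 0.07), of the kinesin genes Kif1a (0.26 ± 0.07) and Kif5a (0.25 ± 0.06) and of the tubulin cofactor gene Tbcd (0.28 ± 0.07). In MGE InhN 13 of 48 tested pathway genes were higher and 4 lower under TMM (20.2% and 9.64% of all genes), and 5 and 14 with total UMIs (12.2% and 24.7%). In Eomes-positive progenitors 2 of 44 were higher and 13 lower under TMM (6.38% and 13.8% of all genes), and 2 and 5 with total UMIs (12.8% and 7.01%).

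The deposited counts were not all whole numbers: entries held parts such as 0.5, as when a UMI is shared out between genes, and the sources used here do not say how this was done. In kept nuclei 1.48% of all UMIs were in divided parts, and the median over 11919 genes with at least 1000 UMIs was 0.559%. Tubb3 stood at 12.6% of its 18467 UMIs, above 93.8% of those genes, and 26.9% of its entries were divided. Tuba1a stood at 2.00% and Tubb2b at 0.332%, and the other 6 genes lay between 0.133% (Dcx) and 0.482% (Mapt). The order differed from that of the shared transcript sequence above, since Tubb3 shares no 50-base word with another gene, and Tuba1a and Tubb2b share the most.

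The genes that shared the divided UMIs could be read from the same nuclei. Where a nucleus had exactly 0.5 in the decimals of Tubb3, 59.0% also had 0.5 in Gm20388, against 29.9% where Tubb3 was whole. Gm20388 (chr8:119910841-124345722, plus strand, GRCm38) is a gene annotated as protein coding that spans all of Tubb3 (chr8:123411424-123422015, plus strand) on the same strand with 0 exon bases in common. For Tuba1a (chr15:98949837-98953703, minus strand) the partner was Gm49450 (chr15:98932137-98953551, minus strand), with 93.0% against 0.195%, and the annotation gives them 473 exon bases in common, 26.2% of those of Tuba1a. For Tubb2b (chr13:34126748-34130466, minus strand) the partners at 0.5 were near-identical copies, the pseudogene Tubb2a-ps2 (57.7% against 0) and Tubb2a (40.7% against 0.004%). Parts of 0.5 that add up to a whole number within 1 gene, and parts other than 0.5, are missed by this count. Of the divided entries of Tuba1a, 65.7% were at 0.5, and the decimals of Tuba1a added up to 1 with those of its copy Tuba1c in 13.6% of the divided entries of Tuba1c and with those of Tuba1b in 5.80% of the divided entries of Tuba1b (within 0.002).

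Genes elsewhere in the genome also appeared for others, with Brd3 for Dclk2 (32.7% against 0.077%) and Psmd12 (29.9% against 0.147%) for Mapt. For Dcx, Pafah1b1 and Map2 the most frequent partners were genes that held 0.5 in many nuclei anyway, such as Fgfr2 for Dcx (35.4% against 27.8%). By class, the divided share of Tubb3 was 11.3% to 20.5% in the neuron classes and 0 to 6.19% in astroglia, oligodendrocyte lineage, microglia, endothelial, mural and choroid nuclei, where between 17.0 and 541 Tubb3 UMIs were counted.

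Over libraries, the divided part of Tubb3 varied less than the whole part. The divided part lay between 9.68 and 14.1 CPM in kept nuclei (coefficient of variation 12.8%), and the whole part between 51.7 and 129 (27.7%). Without WT female 3 these coefficients of variation were 13.0% and 18.2%. WT female 3 had the highest whole part (129) and a divided part of 9.81, which gives it the lowest divided share, 7.06%. For Tuba1a the divided part was 3.64 to 5.49 (13.9%) and the whole part 142.5 to 405 CPM (29.6%), or 13.2% and 20.6% without WT female 3. Whether the 2 parts differ in their variation was not tested. The high Tubb3 and Tuba1a levels of WT female 3 lay in undivided UMIs.

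**Figure D4:**
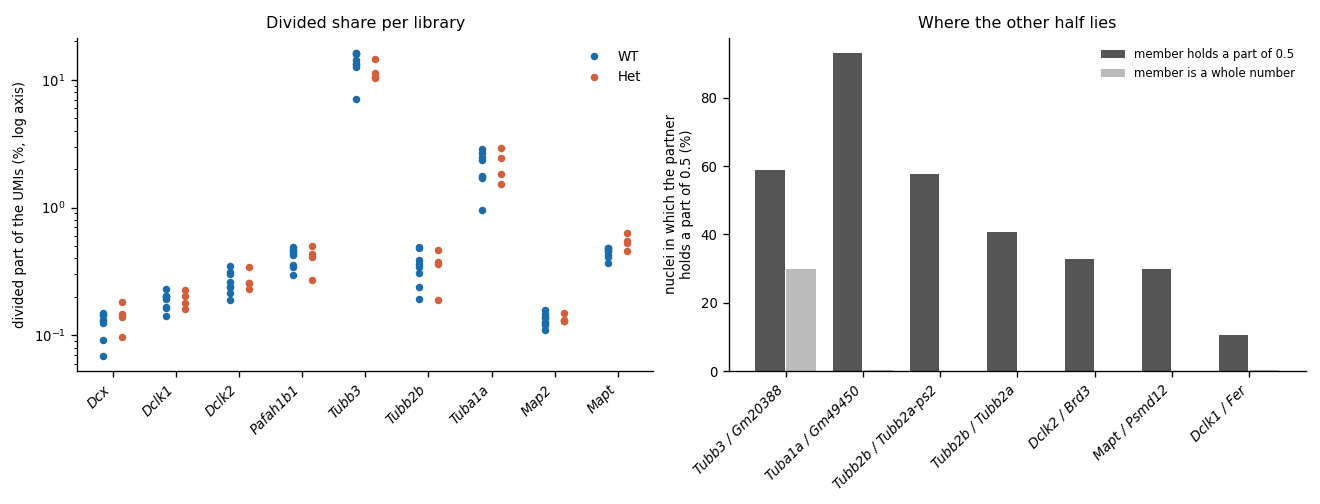
Left, percent of UMIs in divided parts for each gene (log axis), 1 point per library (WT blue, Het orange), and right, percent of nuclei in which a partner gene holds 0.5 where the gene first named holds 0.5 (dark bars) or is whole (light bars). Tubb3 lies between 7.06% and 16.3%, above Tuba1a (0.950% to 2.90%) and the others (at most 0.629%), and its partner Gm20388 is the one with a high light bar (29.9%).

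The divided share was compared between WT and Het libraries. For Tubb3 it was 7.06%, 13.9% and 16.3% (lowest, median and highest of 8) in WT and 10.4% to 14.6% in Het libraries, a difference of -1.94 percentage points (exact permutation p = 0.279, Benjamini-Hochberg adjusted p = 0.98 over the 9 genes). Without WT female 3 the difference was -2.88 points (exact permutation p = 0.0364, unadjusted). That library was singled out after the data were seen. For Mapt it was 0.369%, 0.458% and 0.482% in WT and 0.455% to 0.629% in Het libraries, a difference of 0.0950 points (exact permutation p = 0.0101, Benjamini-Hochberg adjusted p = 0.091 over the 9 genes), and the groups overlapped. The other 7 genes had exact permutation p of 0.352 or more.

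For the level of the 9 genes, no difference between Het and WT passed the test in any of the 13 sets of nuclei (all kept, excitatory and 11 neuron classes). With edgeR 0 genes of the 9 were called in each set, and DESeq2 also called 0. Of all genes tested, 0% were called in 11 sets, 0.0727% in immature ExN (5502 genes) and 0.0202% in upper-layer ExN (9911 genes). These shares of all genes were not stable: without Het female 1, 424 genes were called in excitatory nuclei, 126 in deep-layer ExN and 53 in all kept nuclei, and DESeq2 called 52, 12 and 49, with 0 of the 9 genes among them. At an unadjusted p under 0.05, edgeR gave Mapt in all kept nuclei, excitatory nuclei, immature ExN and upper-layer ExN, and Tubb3 and Tuba1a in D1. Of all genes tested, 10.0%, 12.2%, 8.40%, 7.40% and 6.02% had such a p in these 5 sets, so that 1 gene of the 9 in each of the first 4 is near the background. DESeq2 gave 2, 1, 1, 1 and 0 of the 9 genes at that threshold in the same sets, 0 being its count in D1. All 9 genes were tested in 8 sets, and 4 to 8 genes in Eomes-positive progenitors, L6b/subplate ExN, Cajal-Retzius cells, immature InhN and D2. WT and Het libraries overlapped for each of the 9 genes in each set. The share over all genes is not given here, so this is no result particular to the 9 genes.

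Mapt was the gene closest to a difference. In excitatory nuclei it was at 473, 528 and 627 CPM in the 8 WT libraries and at 497, 474, 481 and 450 in Het male 1, Het male 2, Het male 3 and Het female 1. The lowest WT library, WT male 3, lay below 3 of the 4 Het libraries, and the other WT libraries lay above all 4. The log2 difference was -0.17 ± 0.06 (edgeR adjusted p = 0.28; exact permutation p = 0.0343 for the CPM) and -0.14 ± 0.05 without WT female 3, the highest library. In immature ExN it was at 417, 523 and 577 CPM in WT and at 458, 445, 472 and 409 in Het libraries in the same order (-0.22 ± 0.09, edgeR adjusted p = 0.51; exact permutation p = 0.0283), and in upper-layer ExN the difference was -0.16 ± 0.07 (edgeR adjusted p = 0.67). In deep-layer ExN it was -0.12 ± 0.07 (edgeR adjusted p = 0.64). Over the 20 alternatives the Mapt difference ran from -0.19 to -0.09 in excitatory nuclei and from -0.17 to -0.02 in deep-layer ExN, and the value nearest 0 in both was that of males only.

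The tubulins and Dcx had wide WT ranges that held the Het values, and WT female 3 set the top of each range. Without it the highest WT library was at 286 CPM for Tuba1a, 198.1 for Tubb2b, 126 for Tubb3 and 408 for Dcx. Het male 2 and Het male 3 then lay above all WT libraries for Tuba1a and Tubb2b (198.5 in Het male 3). For Dcx Het male 3 did, and for Tubb3 no Het library did. Tuba1a was at 166, 260 and 580 CPM in WT excitatory nuclei and at 221, 354, 320 and 257 in the Het libraries (log2 difference 0.02 ± 0.23, edgeR adjusted p = 0.99), and 0.25 ± 0.14 (edgeR adjusted p = 0.438) without WT female 3. Tubb2b was at 116, 175 and 383 CPM in WT and at 138, 220, 198 and 175 in Het libraries (-0.03 ± 0.23, and 0.19 ± 0.14 without WT female 3). Tubb3 was at 77.0, 93.4 and 195 CPM in WT and at 90.3, 112, 102 and 104 in Het libraries (-0.05 ± 0.18, and 0.11 ± 0.10 without WT female 3). The sign of the Tubb2b and Tubb3 differences thus turned with 1 library, and none was called. Dcx was at 315, 367 and 492 CPM in WT and at 337, 408, 450 and 404 in Het libraries (0.10 ± 0.10, edgeR adjusted p = 0.75), and the difference was 0.16 ± 0.08 (edgeR adjusted p = 0.407) without WT female 3, its highest library. In deep-layer ExN the differences were 0.20 for Tuba1a and 0.19 for Dcx with all libraries. Without WT female 3 they were 0.38 ± 0.14 and 0.24 ± 0.08 (edgeR adjusted p = 0.329 for both). Tubb2b was then at 0.26 ± 0.15 and Tubb3 at 0.13 ± 0.11, and none of these was called.

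**Figure D5:**
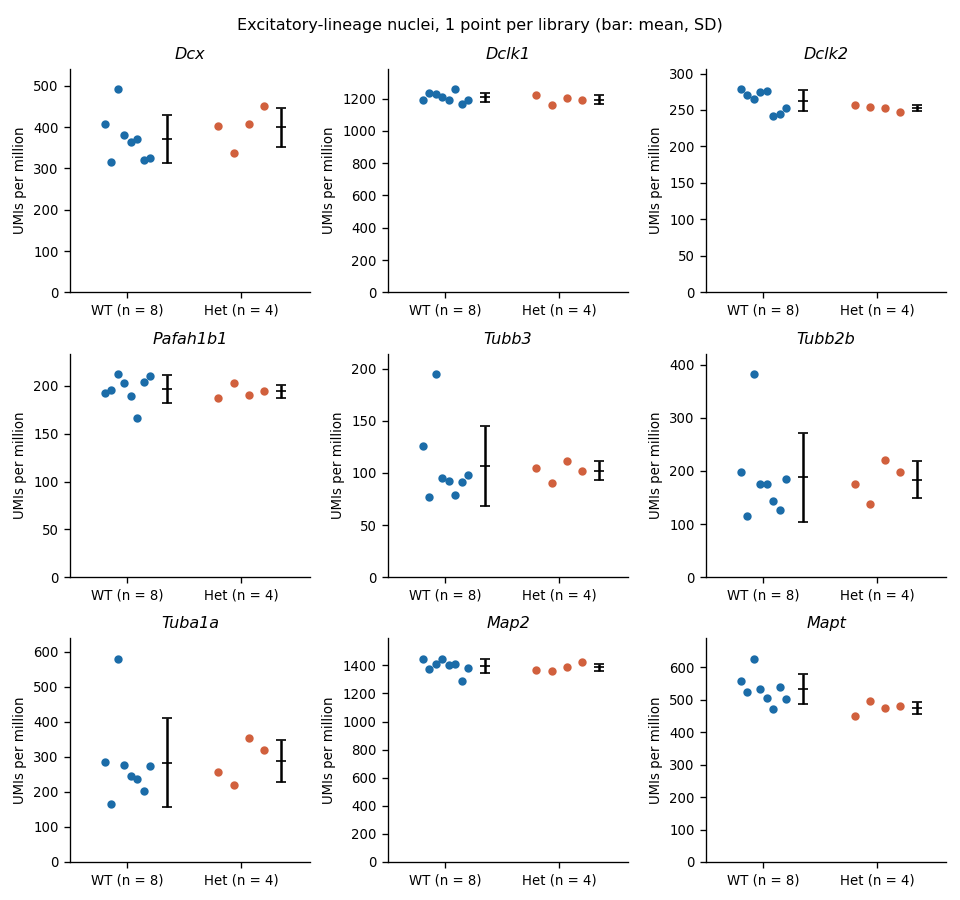
CPM of each gene in excitatory nuclei by library, WT (n = 8) and Het (n = 4), with the mean and SD of each group beside its points. The groups overlap for all 9 genes, and WT female 3 is the highest point for the 3 tubulins and also for Dcx, Mapt and Pafah1b1.

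The steadier genes had smaller errors. In excitatory nuclei Dclk1 was at 1166, 1198 and 1258 CPM in WT and at 1159, 1205, 1194 and 1219 in Het libraries (-0.03 ± 0.05), Map2 at 1292, 1407 and 1447 in WT and 1362, 1385, 1423 and 1369 in Het (-0.02 ± 0.05), Dclk2 at 241, 268 and 279 in WT and 255, 253, 248 and 257 in Het (-0.07 ± 0.05) and Pafah1b1 at 166, 200 and 213 in WT and 204, 191, 195 and 188 in Het libraries (-0.03 ± 0.06). In D1 nuclei, which lacked WT male 4 for having 5 such nuclei, Tubb3 (0.43 ± 0.20, edgeR adjusted p = 0.82) and Tuba1a (0.32 ± 0.14, edgeR adjusted p = 0.80) had the highest values among the 9 genes, and without WT female 3 the differences were 0.56 ± 0.19 and 0.42 ± 0.13 (edgeR adjusted p = 0.381 and 0.267).

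The difference of a class from the immature class of its lineage was compared between Het and WT libraries. Classes were set in part by immature and mature markers, so nuclei that shift between classes are missed. Whether maturation itself differed with genotype was not tested. None of the 9 genes was called by edgeR in upper-layer ExN, deep-layer ExN or MGE InhN, where 0.0107%, 0.0747% and 0.0303% of all genes were. Tuba1a in deep-layer ExN was the only one with an unadjusted p under 0.05 (0.29 ± 0.13, edgeR adjusted p = 0.70), as had 711 of all 10706 genes (6.64%) there. Without WT female 3 it was 0.27 ± 0.14 (edgeR adjusted p = 0.815), with 0 of the 9 genes called in each of the 3 comparisons. Of the other pathway genes, 0 of 60 were called between Het and WT in excitatory nuclei, and the smallest adjusted p was that of Map1a (-0.50 ± 0.10, edgeR adjusted p = 0.0942), a dendritic relative of Map1b. The 8 other structural microtubule proteins had a median of -0.18, against -0.01 over all genes, with 0 of the 8 called. The 3 with the smallest unadjusted edgeR p were Map1a (0.00011), Map7 (0.0051, log2 difference -0.45) and Map6 (0.014, -0.18). Of all 15284 genes tested there, 12.2% had such a p under 0.05. Whether the list differs from the rest was not tested.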

How the data were processed

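Nuclei from flash-frozen forebrain were fixed and barcoded by split pooling, and the authors mapped reads with the ScaleRna workflow to mm10. The deposited gene by nucleus matrices hold expected counts of UMIs, which need not be whole. Barcodes were kept at 800 to 6000 UMIs and 300 to 3000 genes, with mitochondrial UMIs of 1% or less and log genes over log UMIs of 0.9 or more. No doublet caller was run, and nuclei past the marker minimum of at least 2 lineages were left out.

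Marker panels were summed per nucleus and classes set by minimum UMIs of 1 to 5. Sums per library and class were rounded and tested with edgeR 4.0.16 (R 4.3.3; quasi-likelihood, TMM, filterByExpr), with library as a term in the class comparisons, and with DESeq2 1.42.0. Called means a Benjamini-Hochberg adjusted p under 0.05 over all tested genes and a log2 difference of at least 0.2. Classes needed 10 nuclei in a library and 3 libraries per genotype. Single values used exact two-sided permutation tests over libraries, and correlations 100000 permutations. Total UMIs per library ran from 15439429 to 40784144. The edgeR fits were also run on simulated data, and that outcome is not reported here.

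The members and gene lists were chosen with earlier results of these data known. Gate minimums were set after the files were seen, on marker counts and class sizes. The genotype difference of the class differences, the library correlations and the Myt1l and region marker levels were added after seeing the data. So were the whole and divided UMIs by library and the pathway lists with total counts. The fits of the genotype difference without WT female 3 were also added then. Named pathway genes are up to 3 per list with the smallest p in upper-layer against immature ExN or Het against WT excitatory nuclei. Alternatives covered the tool, scaling, filter, divided UMIs, gates, sex, the replicate block and leaving out each library. Some partner genes, markers and sequences are not reported here.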

Additional observations from a re-analysis of the deposited data

Results flagged for a closer look

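In 13 of 90 groups of WT or Het libraries, 1 library lay far from the others of its group by Dixon's test, where chance gives about 1 in 20. WT female 3 accounted for 12 of them. Its Tuba1a level was 409 CPM in all kept nuclei (next WT library 250), 580 in excitatory nuclei (286), 651 in immature ExN (386) and 696 in upper-layer ExN (322). Its Tubb2b level was 283 CPM in all kept nuclei (173), 383 in excitatory nuclei (198), 465 in immature ExN (247) and 442 in upper-layer ExN (221). Its Tubb3 level was 195 CPM in excitatory nuclei (126), 198 in immature ExN (112) and 243 in upper-layer ExN (140), and its divided share of Tubb3 was 7.06% (next lowest WT library 12.5%). The sets overlap in nuclei, so these are not independent. Outside the excitatory classes, WT female 3 was also highest for Tubb2b in MGE InhN (220 CPM), Cajal-Retzius cells (326) and immature InhN (317, on 13 UMIs). The same held in D1 (181) among libraries with at least 10 nuclei. It was not highest in CGE InhN (137, against 147 in Het male 2) or D2 (107, against 204 in Het male 3). Nor was it in astroglia (175, against 202 in Het male 3). WT female 3 had the fewest kept nuclei (4634) and the highest mitochondrial share of excitatory UMIs (0.240%), and their part in the tubulin levels was not tested. Pafah1b1 was at 205 CPM in all kept nuclei of WT male 3 (next lowest 224).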

How the results depend on the processing

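Of the 9 genes, 0 were called between Het and WT in each of the 13 sets under each alternative that could be fitted, and all 2105 values of single genes stayed on their side of the threshold. The stricter gate gave no value for Eomes-positive progenitors. With the replicate block 0 of the 9 genes were called in each set. Replicate numbers did not pair the libraries (correlations of same-numbered libraries -0.15, 0.10, 0.05 and 0.22 over 20351 genes, the best match being the same number in 1 of 4). Over all genes, DESeq2 called 49 in all kept nuclei, 52 in excitatory nuclei, 12 in deep-layer ExN and 8 in D1 (edgeR 0), and 8 and 7 in immature and upper-layer ExN (edgeR 4 and 2). Males only gave 262 in excitatory nuclei, 53 in upper-layer and 63 in deep-layer ExN, and no filter 123, 109 and 225. Leaving out 1 library gave 0 to 424 in excitatory nuclei, 0 to 126 in deep-layer ExN and 0 to 53 in all kept nuclei. In the class comparisons no gene reversed among the 9. With the stricter gate 4 of their calls were lost and 2 gained, with WT libraries alone 2 and 1, and with DESeq2 1 and 3. Total counts changed the number called from 4 to 2 in Eomes-positive progenitors, from 2 to 5 in deep-layer ExN and from 4 to 8 in MGE InhN, and no filter from 2 to 4 in deep-layer and from 3 to 5 in L6b/subplate ExN. The share of all genes called without a filter is not given here, so those counts cannot be set against it. Over all genes, no filter called 1897 in Eomes-positive progenitors (1155 with the filter), 2951 in L6b/subplate ExN (1948), 1761 in CGE (1157), 2979 in D1 (1853) and 1621 in D2 (950), the stricter gate 330, 1104 and 576 in Eomes-positive progenitors, D1 and D2, and WT libraries alone 723 in Eomes-positive progenitors. The call of Tubb3 in Eomes-positive progenitors was lost without Het male 2, WT female 2 or WT female 3, and that of Dclk1 in D2 without Het female 1, Het male 3, WT female 3 or WT male 5. Without a filter the fall of Dcx in upper-layer ExN was under the size called (-0.18), and Map2 in D1 was at -0.03. For the divided share of Tubb3, leaving out 1 library gave differences of -2.91 to -1.50 points (-2.88, unadjusted exact permutation p = 0.0364, without WT female 3). For Mapt it was 0.222 points by share of entries (exact permutation p = 0.0667), 0.0588 with all barcodes (exact permutation p = 0.0747) and 0.0654 to 0.123 leaving out 1 library (0.0654 without Het male 1, exact permutation p = 0.0545). Causes of these changes were not tested. Tubb3, with 25 UMIs in Eomes-positive progenitors, was the gene most limited by depth among the class comparisons.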
